A study of Homo sapiens with 18 samples.

Results

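DCIS.COM cells that had grown in mouse mammary ducts for 10 weeks were compared with DCIS.COM cells that had grown there for 6 weeks. DCIS.COM is an established human line that forms basal-like ductal carcinoma in situ (DCIS) lesions and is negative for the estrogen receptor, the progesterone receptor and HER2. In the mouse intraductal (MIND) model the cells are injected through the nipple into the ducts of immunodeficient NOD-SCID IL2Rgamma null (NSG) females, which were young adult virgins. Each group held 3 arrays, each made from EpCAM-positive cells magnetically sorted from 5 mice, so that 6 of the 18 arrays of the series entered the comparison. The other arrays came from DCIS.COM at 2 weeks and from SUM225, a HER2-positive line, at 2, 6 and 10 weeks, again with 3 arrays per group. All groups received unmodified cells, and the labels of the groups of a line differ only in time. The labels give no date or batch, and the age of the host mice rises with that time, so these cannot be told apart from it. A pool of 5 mice gives 1 value, so differences among the mice of a pool were not measured, and no normal human duct was included. The comparison asks what changed in the sorted epithelial cells late in the model, up to the time by which the study describes its DCIS.COM lesions as invasive.

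In DCIS, malignant epithelial cells fill a duct that is still enclosed by myoepithelial cells and a basement membrane rich in type IV collagen and laminin. Invasion begins when cells pass that boundary, a step that draws on proteases, on changes in cell adhesion and, in some models, on Wnt signaling through β-catenin and its cofactor BCL9. Basal-like cells carry keratins 5, 14 and 17, and some of them can take on traits of luminal or of squamous epithelium. Growing cells also build their own fatty acids and cholesterol through enzymes whose genes are switched on together by the transcription factors SREBF1 and SREBF2.

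Expression is given as log2 values from robust multiarray averaging (RMA), so that a difference of 1 is a 2-fold change. The tests, run in limma on these 6 arrays, covered 54613 probe sets. For counts of genes, the brightest named probe set over the 18 arrays stood for each of 19127 genes. Names were taken from tables that list probe sets the authors called between 6 and 2 weeks in either line, so 16909 probe sets had no name here. Of the line markers, KRT5, KRT14, KRT17, EGFR and ERBB2 set all 6 arrays apart from SUM225 at 6 and 10 weeks. The basal marker TP63 did not, at 4.82 to 5.58 against 5.08 to 5.37 in SUM225, and ESR1 and PGR were at like levels in both lines. KRT14 lay between 13.04 and 13.40, against 7.20 to 7.94 in SUM225, and ERBB2 (HER2) lay between 8.48 and 9.31, against 12.46 to 12.68 in SUM225. EPCAM, the gene of the sort, lay between 12.66 and 12.93. Array medians lay between 5.41 and 5.52, and the arrays of the 2 times were as alike as arrays of 1 time, since Pearson's r over probe sets was 0.984 to 0.993 between 10 and 6 weeks, 0.982 to 0.989 among the 10-week arrays and 0.988 to 0.992 among the 6-week arrays. Replicate 1 of 10 weeks stood apart, with r of 0.949 to 0.981 with the 2-week arrays, against 0.906 to 0.964 for the other 10-week arrays. Because each array is a bulk measurement, fewer cells of a kind and less RNA per cell cannot be told apart.

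Few probe sets passed the adjusted test. At an adjusted p (Benjamini-Hochberg) under 0.05, limma called 3 probe sets higher at 10 weeks (0.00549%) and 0 lower, with 1020 higher (1.87%) and 687 lower (1.26%) at an unadjusted p under 0.05. SAM, the test named in the study's methods, called 0 in either direction at a false discovery rate under 5%. Separation of the arrays was more common: all 3 values at 10 weeks lay above all 3 at 6 weeks for 1979 probe sets (3.62%) and below them for 1836 (3.36%). A mean difference of at least 2-fold was seen for 44 probe sets in the higher direction (0.0806%) and 41 in the lower (0.0751%). In genes, 729 of 19127 were higher without overlap (3.81%) and 684 lower (3.58%), and the median difference over all genes was -0.00. If the times did not differ, 1 in 20 splits of 6 arrays would give separation in each direction. All 4 separation shares are under that, and the 2 unadjusted shares together are under the 5% that their threshold allows. Separation alone is therefore no sign of a change with time. Arrays of 3 against 3 cannot reach an exact permutation p under 0.1, so separation is given as a description, and "rose" is kept for the 3 genes that passed. No probe set passed in the fits without replicate 1 or 3 of 10 weeks or without any one 6-week array, and without replicate 2 of 10 weeks 5 were called higher and 7 lower.

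**Figure D1:**
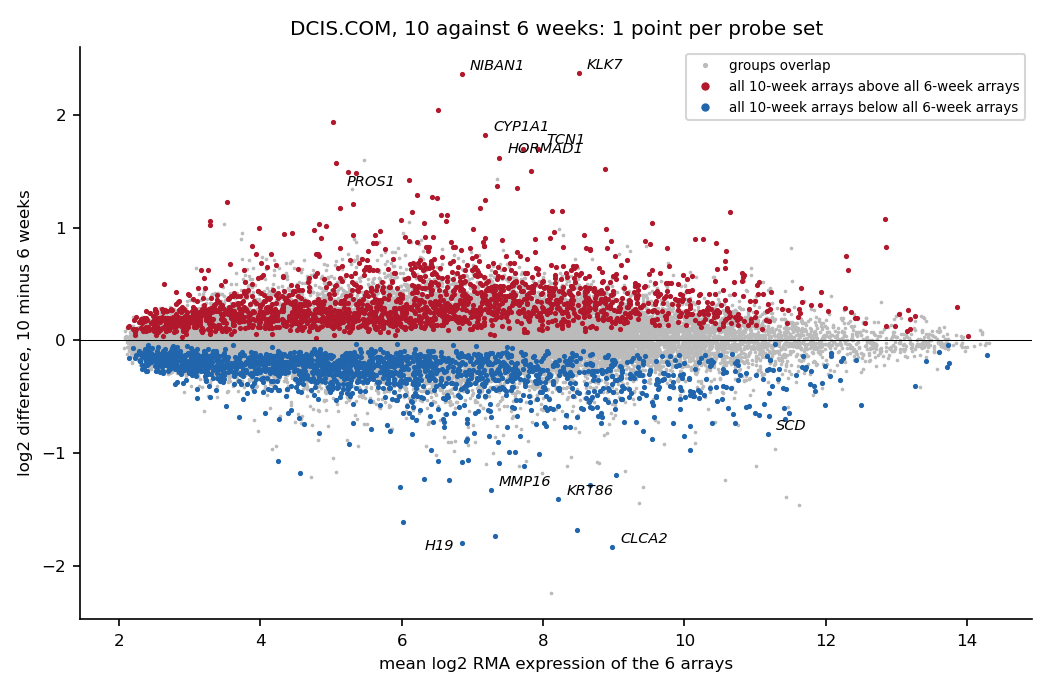
Difference between 10 and 6 weeks (y axis, log2) against the mean level of the 6 DCIS.COM arrays (x axis, log2 RMA), 1 point per probe set. Red points have all 10-week arrays above all 6-week arrays, blue points the reverse, and grey points overlap; KLK7 and NIBAN1 stand highest at 2.37 and 2.36, and the lowest separated gene is CLCA2 at -1.83.

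KLK7, NIBAN1 and PROS1 rose. KLK7, a chymotrypsin-like kallikrein protease that cleaves the junctions between shedding keratinocytes, had 9.81, 9.23 and 10.03 at 10 weeks, against 7.49, 6.99 and 7.48 at 6 weeks. The lowest 10-week array was 1.74 above the highest 6-week array, and the gene rose by 2.37 ± 0.23 (SE) on the log2 scale, 5.16-fold (limma adjusted p = 0.0457). Its other named probe set was also separated, at 1.70. NIBAN1, listed under its older symbol FAM129A and known as a protein induced by stress of the endoplasmic reticulum, had 8.39, 7.96 and 7.74 at 10 weeks, against 6.08, 5.34 and 5.57 at 6 weeks. The groups were 1.66 apart at their nearest arrays, with a change of 2.36 ± 0.22 (limma adjusted p = 0.0457), and the other probe set was separated at 2.04. PROS1, protein S, which is a cofactor in anticoagulation and a ligand of the receptors TYRO3 and MERTK, had 6.78, 6.73 and 6.93 at 10 weeks, against 5.43, 5.31 and 5.44 at 6 weeks. Its change of 1.42 ± 0.12 was the smallest of the 3 and had the least spread among arrays (limma adjusted p = 0.0457). All 3 calls were lost when the arrays were rescaled or when most single arrays were left out, while their changes stayed between 2.14 and 2.60 for KLK7, 2.18 and 2.57 for NIBAN1 and 1.36 and 1.46 for PROS1.

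The other genes among the 15 largest positive differences without overlap missed the threshold, and their values describe the arrays. DNER, a membrane protein that binds Notch, had 9.46, 9.63 and 9.82 at 10 weeks, against 8.33, 7.90 and 8.13 at 6 weeks, a difference of 1.52 ± 0.16 (limma adjusted p = 0.0682). NOV, a matricellular protein of the CCN family, had 8.75, 8.86 and 8.93 at 10 weeks, against 7.58, 7.81 and 7.72 at 6 weeks (1.15 ± 0.13, limma adjusted p = 0.0967). In both genes the arrays of each time were close together, and the nearest arrays of the 2 times were 1.13 apart for DNER and 0.94 for NOV. CYP1A1, a cytochrome P450 known as the classic target of the aryl hydrocarbon receptor, had 7.85, 7.81 and 8.60 at 10 weeks, against 6.67, 6.25 and 5.88 at 6 weeks, a 3.52-fold difference. TCN1, the vitamin B12 carrier haptocorrin, had 8.35, 9.27 and 8.71 at 10 weeks, against 7.01, 6.41 and 7.82 at 6 weeks. HORMAD1, a meiotic chromosome protein normally restricted to germ cells, had 8.12, 8.50 and 7.97 at 10 weeks, against 5.84, 6.73 and 7.15 at 6 weeks. TCN1 and HORMAD1 had wide 6-week groups (limma adjusted p = 0.828 and 0.778), and that of CYP1A1 was 0.303. The remaining members were the transcription factor SOX8 (1.27), carbonic anhydrase CA2 (1.26), FAM135A (1.17), the desmosomal cadherin DSG1 (1.15), the epidermal protease ASPRV1 (1.14), the small GTPase RAB31 (1.11) and ELF5 (1.11), an ETS factor of the luminal progenitor and milk-secreting lineage. CTSV, a lysosomal cysteine protease at 13.45, 13.28 and 13.40 at 10 weeks, against 12.16, 12.22 and 12.52 at 6 weeks, was the next gene outside this group of 15 (1.08 ± 0.14).

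**Figure D2:**
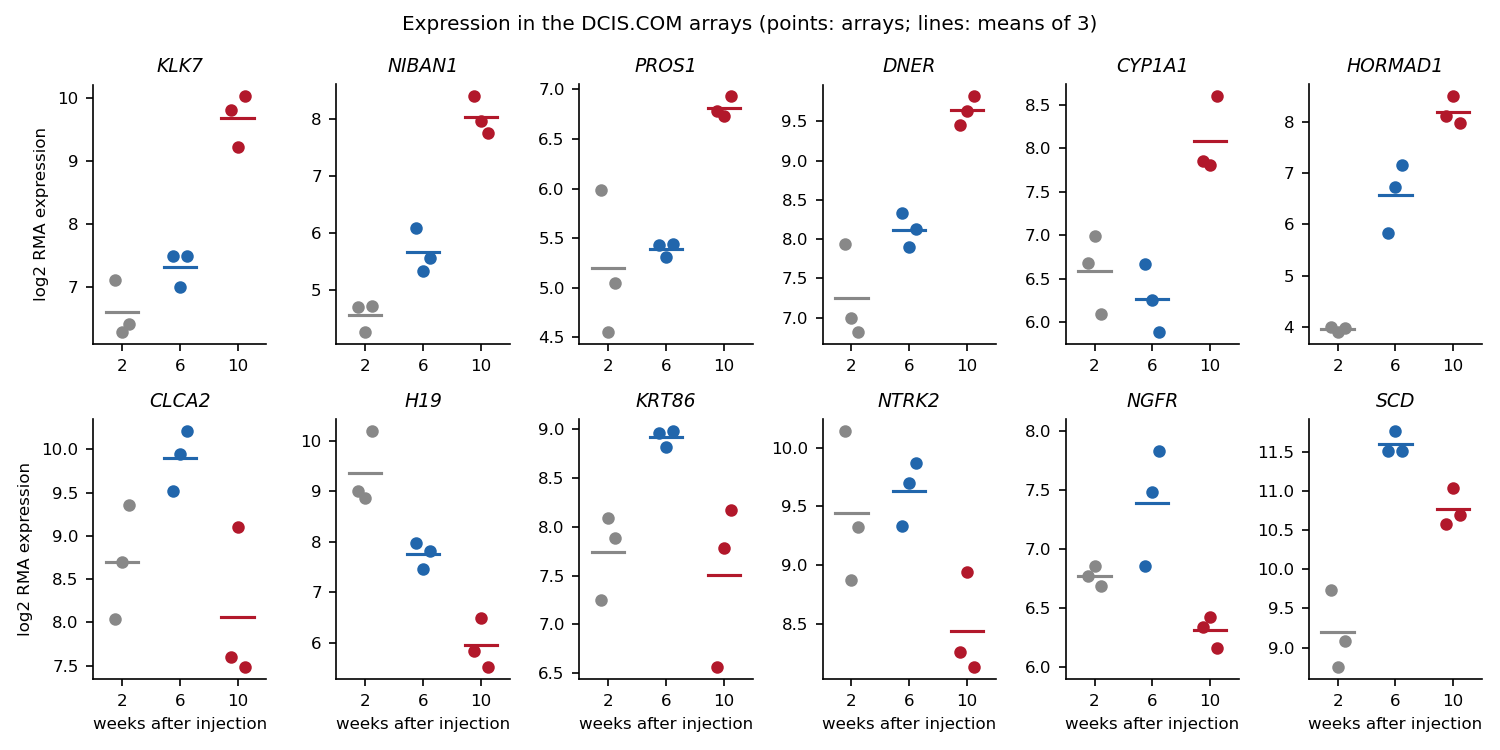
Log2 RMA expression (y axes, each with its own range) of 12 genes in the DCIS.COM arrays at 2, 6 and 10 weeks (x axes); points are arrays and lines are means of 3. In every panel the 10-week points do not overlap the 6-week points, with KLK7 at 9.23 to 10.03 against 6.99 to 7.49 and H19 at 5.52 to 6.49 against 7.47 to 7.97.

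Among the 15 largest negative differences without overlap, none passed the adjusted test (limma adjusted p = 0.234 for the lowest). CLCA2, a p53-inducible membrane protein of epithelia, had 7.60, 9.10 and 7.48 at 10 weeks, against 9.52, 9.95 and 10.21 at 6 weeks. Its difference was -1.83 ± 0.39, and its 3 other probe sets were separated as well, between -1.73 and -1.61. Replicate 2 of 10 weeks was the nearest to the 6-week arrays. H19, an imprinted noncoding RNA of the growing fetus, had 5.85, 6.49 and 5.52 at 10 weeks, against 7.97, 7.47 and 7.82 at 6 weeks (-1.80 ± 0.24). Its other probe set read -1.17 with overlapping arrays. KRT86, a hair keratin with near-identical relatives that its probes may not tell apart, had 6.56, 7.78 and 8.17 at 10 weeks, against 8.96, 8.82 and 8.98 at 6 weeks. Here the 6-week arrays were nearly equal and the 10-week arrays differed widely. Both neurotrophin receptors of the group were lower. NTRK2 (TrkB) had 8.26, 8.94 and 8.13 at 10 weeks, against 9.33, 9.70 and 9.87 at 6 weeks, although 4 other probe sets read between -0.13 and 0.06. NGFR (p75), a marker of basal and myoepithelial cells, had 6.34, 6.42 and 6.16 at 10 weeks, against 6.85, 7.48 and 7.83 at 6 weeks (-1.08 ± 0.23). COL4A2, a chain of the type IV collagen of basement membranes, had 6.73, 7.87 and 6.73 at 10 weeks, against 8.14, 8.13 and 8.03 at 6 weeks (-0.99 ± 0.28). The others were the membrane-type metalloprotease MMP16 (-1.33), the procollagen protease ADAMTS3 (-1.23), the nucleotide exchange factor VAV3 (-1.06), the adhesion receptor ADGRL3 (-1.01), the secreted serine protease HTRA1 (-0.90), a histone H2B gene listed as HIST1H2BC (-0.87), the arginine deiminase PADI2 (-0.85), the glycosyltransferase GALNT10 (-0.85) and the desaturase SCD (-0.83).

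Large differences that did not separate the arrays were mostly negative and mostly turned on 1 array. Of the genes at least 2-fold apart, 18 were separated and higher and 10 separated and lower (0.105% and 0.115% of all genes were at least 2-fold apart), while 2 overlapped in the higher direction and 12 in the lower. In 11 of these 12, replicate 2 of 10 weeks was the highest of its group. DCD, the antimicrobial peptide dermcidin, had the most negative mean difference of these 12, with 5.64, 8.95 and 6.38 at 10 weeks, against 10.44, 7.70 and 9.54 at 6 weeks (-2.24 ± 0.87). TNC, the matrix protein tenascin C, had 7.69, 9.51 and 7.46 at 10 weeks, against 9.17, 9.46 and 9.27 at 6 weeks. In DCD and TNC, replicates 1 and 3 of 10 weeks lay below every 6-week array and replicate 2 lay among or above them. MMP1, a collagenase, was one of the 2 overlapping genes in the higher direction, with 4.44, 7.78 and 5.67 at 10 weeks, against 6.23, 4.07 and 3.56 at 6 weeks. These genes were chosen after their values were seen.

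Most genes of fatty acid and cholesterol synthesis had lower means at 10 weeks. Of 24 genes measured, 0 were higher without overlap and 12 were lower without overlap, or 50%, beside 3.81% and 3.58% of all genes. The median difference was -0.33, beside -0.00 over all genes, and 22 of the 24 means were negative. The median level of the list was 9.37, 9.59 and 9.59 in the 10-week arrays, against 9.77, 9.98 and 9.98 in the 6-week arrays. Genes that are switched on together do not vary independently, so the 12 are not 12 independent observations. A change of the list as a whole was not tested. No member passed limma's adjusted test, and 11 were lower at an unadjusted p under 0.05, beside 1.55% of all genes. Without replicate 1 of 10 weeks 13 of the 24 were separated and lower (54.2%), with a median of -0.27. Leaving out an array makes separation easier, and without this array 14.8% of all genes were higher and 16.5% lower without overlap.

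SCD, the enzyme that puts the double bond into stearate, had 10.58, 11.04 and 10.69 at 10 weeks, against 11.51, 11.76 and 11.51 at 6 weeks (-0.83 ± 0.16, limma adjusted p = 0.828). All 4 of its other probe sets were separated in the same direction, between -0.72 and -0.33. SREBF1, the transcription factor of the pathway, had 9.23, 9.26 and 9.18 at 10 weeks, against 9.66, 10.10 and 9.96 at 6 weeks (-0.68 ± 0.14). INSIG1, the sterol sensor that holds the SREBF proteins inactive and is itself their target, had 10.55, 11.06 and 10.56 at 10 weeks, against 11.23, 11.24 and 11.67 at 6 weeks (-0.66 ± 0.19). The spread within each group of these genes was smaller than the difference between the means. The fatty acid branch also held FASN (-0.52), ACACA (-0.42) and ACLY (-0.34). In the sterol branch were DHCR7 (-0.51), which acts at its end, HMGCS1 (-0.48), which acts at its start, and FDFT1 (-0.38) and FDPS (-0.17) between them. Unlike SCD, several of these genes were separated on 1 probe set alone. The second probe set of SREBF1 read -0.10 and those of INSIG1 -0.52 and -0.18, all with overlapping arrays, and the second probe set of FASN read 0.00 and that of FDPS 0.04. SQLE had a mean difference of -0.36 with overlapping arrays, 9.47, 10.12 and 9.59 at 10 weeks, against 10.21, 9.97 and 10.08 at 6 weeks.

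The starts of 3 of these genes are shown because the genes were all lower at 10 weeks and share a short motif, the CCAAT box bound by the factor NF-Y. Each sequence is the 250 bases before the transcription start, 5′ to 3′ on the strand of the gene, from RefSeq on GRCh38.p14, with CCAAT or its reverse complement ATTGG in capitals. For HMGCS1 the first of 2 listed starts was taken.
SCD at chr10:100346983-100347232, plus strand: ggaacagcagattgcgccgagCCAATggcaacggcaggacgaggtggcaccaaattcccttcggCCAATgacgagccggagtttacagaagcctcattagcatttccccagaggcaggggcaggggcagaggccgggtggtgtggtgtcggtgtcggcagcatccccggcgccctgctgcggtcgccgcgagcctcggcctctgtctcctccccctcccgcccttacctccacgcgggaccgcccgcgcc
INSIG1 at chr7:155297628-155297877, plus strand: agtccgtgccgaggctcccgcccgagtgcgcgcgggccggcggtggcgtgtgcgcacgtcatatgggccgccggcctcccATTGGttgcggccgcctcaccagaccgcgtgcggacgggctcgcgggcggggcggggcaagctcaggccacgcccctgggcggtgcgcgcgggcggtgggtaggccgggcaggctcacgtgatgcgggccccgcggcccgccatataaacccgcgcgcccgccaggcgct
HMGCS1 at chr5:43313413-43313662, minus strand: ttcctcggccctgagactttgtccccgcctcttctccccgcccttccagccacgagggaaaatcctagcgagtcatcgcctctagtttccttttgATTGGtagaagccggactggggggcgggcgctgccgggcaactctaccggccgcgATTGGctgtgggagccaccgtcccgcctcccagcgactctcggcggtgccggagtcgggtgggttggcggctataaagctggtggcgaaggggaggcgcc
The SCD and HMGCS1 windows hold 2 boxes each and the INSIG1 window 1. The windows of SREBF1 and ACACA, which were also separated and lower, hold 0. Of the 8 separated and lower list members with a promoter in the table, 6 held CCAAT. On both strands, 12 of the 17 list members with a promoter in the table held CCAAT, and 33% of all 27305 promoters did. Only 70.8% of the 24 list members had a promoter there, under the 80% set for comparing shares, so the share over the list was not compared. Of the other motifs searched on both strands, ACGTG was in 4 of the 17 (18.7% of all promoters), CACGTG, which contains ACGTG, in 2 (6.49%), and TGANTCA, TGACGTCA and the interferon-stimulated response element in 0 (6.6%, 1.77% and 3.07%). A match is a match of letters and shows no binding.

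**Figure D3:**
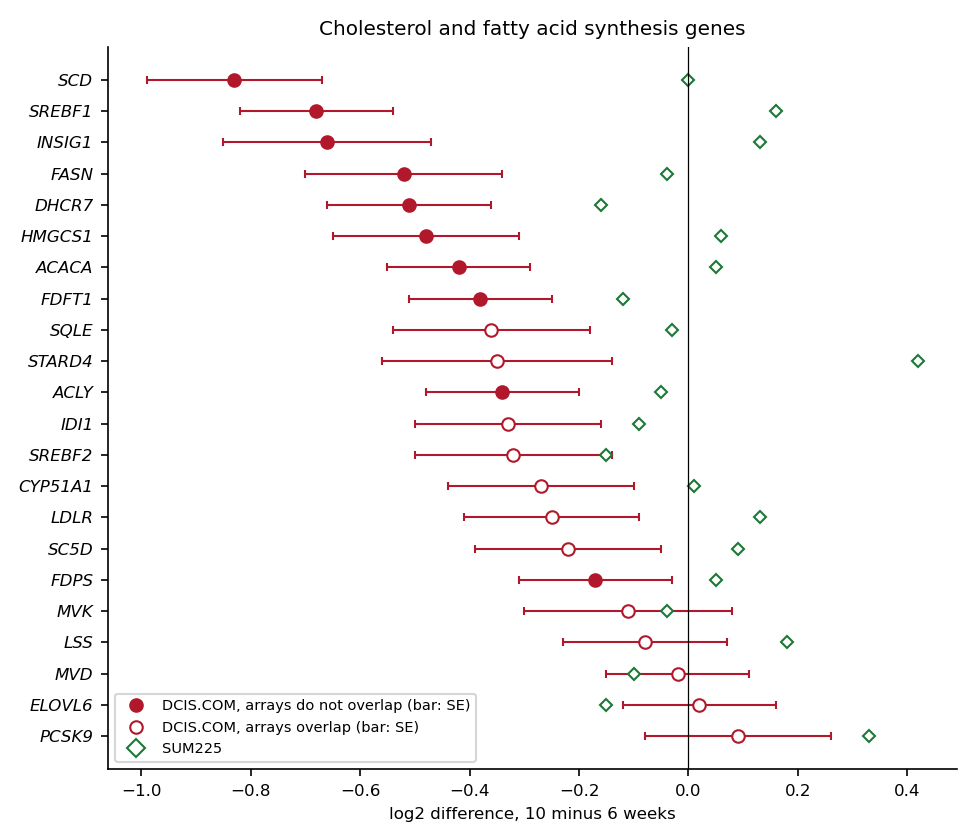
Difference between 10 and 6 weeks (x axis, log2) for 22 of the 24 measured genes of cholesterol and fatty acid synthesis in DCIS.COM (red circles with SE; filled where the 3 arrays of each time do not overlap) and in SUM225 (green diamonds). In DCIS.COM 10 of the genes drawn are filled, all to the left of 0, and SCD lies farthest left at -0.83.

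Several genes of the immediate early and ERK feedback lists also had lower values without overlap. Of 22 immediate early and AP-1 genes, which cells switch on within minutes of a stimulus, 5 were lower without overlap (22.7%, beside 3.58% of all genes) and 1 higher, with a median of -0.26. Without replicate 1 of 10 weeks the count was again 5, now beside 16.5% of all genes, and the median was -0.12 without replicate 3 of 6 weeks. JUND had 10.74, 10.78 and 10.51 at 10 weeks, against 11.31, 11.26 and 11.39 at 6 weeks (-0.64 ± 0.13, limma adjusted p = 0.828). FOS averaged 10.97 at 10 weeks and 11.43 at 6 weeks, with little spread among the 10-week arrays. EGR1, an early zinc finger factor, had 11.21, 11.87 and 11.77 at 10 weeks, against 11.88, 12.09 and 12.25 at 6 weeks, and FOSB overlapped at -0.75. KLF4, a factor that promotes epidermal differentiation, was the one in the higher direction, with 11.79, 11.96 and 11.91 at 10 weeks, against 11.34, 11.45 and 11.48 at 6 weeks. Among 18 genes of EGFR ligands and ERK feedback, 4 were lower without overlap (22.2%, beside 3.58% of all genes) and 1 higher, and without replicate 1 of 10 weeks 5 were lower (27.8%, beside 16.5%). Both ETS factors that ERK induces were among them. ETV5 averaged 8.79 at 10 weeks and 9.51 at 6 weeks (-0.72 ± 0.17), and ETV4 was at -0.38. DUSP6, the phosphatase that switches ERK off, was at -0.42 and stood in both lists, and SPRED2, an inhibitor of the pathway, was at -0.31 with arrays that nearly met. In neither list did a member pass the adjusted test.

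Of 28 genes of squamous differentiation, 4 were higher without overlap (14.3%, beside 3.81% of all genes) and 1 lower, and 21 of the 28 means were positive, with a median of 0.13. With replicate 1 of 10 weeks left out, 6 were higher (21.4%, beside 14.8% of all genes) and 3 lower. Apart from KLK7, the separated members were TGM1 (0.46), which cross-links the cell envelope, the junction protein CDSN (0.34) and the suprabasal keratin KRT10 (0.22), with the protease KLK10 at -0.27. TGM1 had 7.99, 8.54 and 8.55 at 10 weeks, against 7.92, 7.84 and 7.92 at 6 weeks, so replicate 1 of 10 weeks was only just above. The second probe set of CDSN read -0.12. SPRR1B, an envelope precursor, and KRT16, a keratin of stressed epidermis, had means of 0.84 and 0.69 above those at 6 weeks but overlapped. SPRR1B had 9.99, 9.63 and 10.02 at 10 weeks, against 9.81, 8.65 and 8.66 at 6 weeks, and the highest 6-week array lay among the 10-week arrays. KRT16 had 10.24, 9.73 and 10.40 at 10 weeks, against 6-week arrays that reached 9.89. The list median lay between 0.03 and 0.29 when single arrays were left out.

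Lineage markers differed in both directions. Of 23 luminal genes 3 were higher without overlap (13%, beside 3.81% of all genes) and 2 lower (8.7%, beside 3.58%). ELF5 lay between 6.91 and 7.41 at 10 weeks, against 5.50, 5.84 and 6.65 at 6 weeks. ALDH1A3, a retinaldehyde dehydrogenase of luminal progenitors, had 13.08, 13.30 and 13.42 at 10 weeks, against 12.80, 12.35 and 12.17 at 6 weeks (0.83 ± 0.18). The luminal keratin KRT19 had 6.48, 6.95 and 6.85 at 10 weeks, against 6.13, 5.83 and 6.24 at 6 weeks (0.70 ± 0.17). In the lower direction were SPDEF, a luminal ETS factor, at -0.62 and ERBB2 at -0.55, with 8.84, 8.62 and 8.48 at 10 weeks, against 9.14, 9.31 and 9.13 at 6 weeks. Of 22 basal and myoepithelial genes 2 were higher without overlap and 2 lower (9.09% each), with a median of -0.06 and a highest difference of 0.66. CAV1 (0.14) was among the 2 higher, and the 2 lower were NGFR and KRT5. KRT5, the keratin used to stain basal cells, had 10.08, 10.40 and 10.37 at 10 weeks, against 10.96, 10.53 and 10.92 at 6 weeks (-0.52 ± 0.16), and KRT14 was at -0.05. The probe set that represents TP63, the basal transcription factor, was dim and read -0.22, and another TP63 probe set, chosen after its value was seen, averaged 5.32 at 10 weeks and 6.62 at 6 weeks with no overlap. The luminal marker CD24 was higher without overlap on all of its 6 probe sets, although the representative one differed by only 0.22, and CD44 read -0.10 with overlap.

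Genes of the duct boundary and of motility gave no uniform picture. Of 22 genes of the basement membrane and its anchoring junctions 3 were lower without overlap (13.6%, beside 3.58% of all genes) and 0 higher, with a median of -0.18. When replicate 1 of 10 weeks was left out, 4 were lower (18.2%) and 1 higher, near the 16.5% of all genes lower, with a median of -0.10. Beside COL4A2 these were the laminin receptor chain ITGA3 (-0.44) and the hemidesmosome linker DST (-0.41). COL4A1, the partner chain of COL4A2, had 6.82, 8.56 and 6.63 at 10 weeks, against 8.13, 8.07 and 8.48 at 6 weeks, again with replicate 2 of 10 weeks apart from the others. None of 22 mesenchymal genes was separated in either direction, and their median of -0.24 lay between -0.33 and -0.04 when single arrays were left out. Vimentin (VIM), the intermediate filament used as a mesenchymal marker, had 12.07, 11.52 and 11.23 at 10 weeks, against 11.56, 11.73 and 11.92 at 6 weeks. E-cadherin (CDH1) had 12.61, 12.46 and 12.55 at 10 weeks, against 12.24, 12.43 and 12.34 at 6 weeks, a difference of 0.20 ± 0.12. The sort kept EpCAM-positive cells, so tumor cells that had lost EpCAM were not measured at either time. Among 26 genes of epithelial junctions 3 were higher and 2 lower without overlap (11.5% and 7.69%), including the desmosomal plaque protein PKP2 at 0.52 and the desmosomal cadherin DSG3 at -0.42. Of 29 proteases and inhibitors 3 were higher and 2 lower without overlap (10.3% and 6.9%). The higher ones were CTSV and the surface sheddases ADAM10 (0.41) and ADAM9 (0.31), and the lysosomal protease CTSD was at -0.35.

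In the Wnt pathway 11 of the 77 genes of 4 lists were separated in either direction (14.3%, beside 7.39% of all genes), 4 higher and 7 lower, and without replicate 1 of 10 weeks 32.5% were, beside 31.2% of all genes. BCL9, the study's gene, had 7.51, 7.40 and 7.46 at 10 weeks, against 7.72, 7.58 and 7.64 at 6 weeks, which is -0.19 ± 0.12 with no overlap (limma adjusted p = 1). Its relative BCL9L read -0.02, and the sign turned in 3 of the 6 fits that left out 1 array. β-catenin (CTNNB1) had 8.29, 9.28 and 8.65 at 10 weeks, against 9.13, 9.33 and 9.46 at 6 weeks, so that replicate 2 of 10 weeks lay among the 6-week arrays (-0.57 ± 0.23). Of 29 ligands and receptors 1 was higher and 2 lower without overlap (3.45% and 6.9%, beside 3.81% and 3.58% of all genes). Of 19 inhibitors 3 were higher and 3 lower (15.8% each). The secreted inhibitor SFRP1 had 12.18, 12.43 and 12.03 at 10 weeks, against 12.63, 12.87 and 12.84 at 6 weeks (-0.57 ± 0.15), and RNF43, which removes Wnt receptors, was at -0.35. None of 20 Wnt targets was higher without overlap, and 2 were lower (10%, beside 3.58% of all genes).

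Proliferation genes gave small differences that depended on single arrays. Of 25 DNA replication genes 4 were lower without overlap (16%, beside 3.58% of all genes) and 0 higher, with a median of -0.17. Without replicate 1 of 10 weeks 5 were lower (20%, beside 16.5%), and the median was -0.06 without replicate 3 of 6 weeks. RRM2, the small subunit of ribonucleotide reductase, had 11.05, 11.02 and 11.07 at 10 weeks, against 11.47, 11.46 and 11.39 at 6 weeks (-0.40 ± 0.12), and thymidylate synthase TYMS was at -0.45 and the helicase subunit MCM7 at -0.28. Of 26 mitosis genes 1 was lower without overlap, the spindle protein NUSAP1 at -0.33, a share of 3.85% that is near that of all genes, and the list median of -0.14 lay between -0.26 and -0.04 when single arrays were left out. CDKN1C, the imprinted cell-cycle inhibitor p57, had 7.87, 8.29 and 7.91 at 10 weeks, against 7.34, 6.62 and 7.78 at 6 weeks (0.78 ± 0.27). NRARP, a feedback target of Notch, had 7.64, 7.96 and 8.20 at 10 weeks, against 7.25, 7.05 and 7.42 at 6 weeks (0.69 ± 0.17). Among 17 HLA and antigen processing genes 3 were higher without overlap (17.6%, beside 3.81% of all genes) and 0 lower, with a median of 0.19 that was 0.06 without replicate 2 of 6 weeks. The peptide transporter subunit TAP2 was at 0.55, and HLA-E and HLA-F, whose probes may also read other HLA genes, were at 0.41 and 0.39. Without replicate 1 of 10 weeks 7 of the 17 were separated and higher (41.2%), beside 14.8% of all genes. CA12, a carbonic anhydrase of the hypoxia list, was at -0.64, the only separated gene among 24 (4.17%, near the 3.58% of all genes lower). The median of that list was 0.11, and 17 of its 24 means were positive. Markers of fibroblasts, endothelium, leukocytes, erythroid cells, adipocytes and muscle, the other cells a gland could hold, showed 0 of 67 genes higher and 1 lower without overlap (PDGFRB, -0.22), or 1.49% beside 3.58% of all genes, with list medians between -0.13 and 0.03. Without replicate 1 of 10 weeks 22 of the 67 were lower (32.8%, beside 16.5% of all genes) and 1 higher, and the medians of all 6 lists were negative, between -0.19 and -0.09, so the low share with all arrays rests on that array. Among second probe sets, one of CTSS, a lysosomal protease of antigen-presenting cells, chosen after its value was seen, had 5.43, 5.87 and 6.62 at 10 weeks, against 4.70, 4.29 and 4.46 at 6 weeks, while the representative one averaged 6.95 at 10 weeks and 6.41 at 6 weeks with overlap. In these glands such cells are mouse cells, and the probes are for human genes, so they read host RNA only where it cross-hybridizes. Only 6, 4, 6, 1, 1 and 2 genes of the 6 lists, in the order named, reached a mean of 6 at either time. These shares therefore do not measure host cells, and the part of other cells in the results above was not tested. PECAM1 (CD31), the endothelial adhesion molecule, had 6.93, 9.22 and 9.17 at 10 weeks, against 9.09, 9.09 and 9.66 at 6 weeks, so that replicate 1 of 10 weeks was low and the others overlapped the 6-week arrays.

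**Figure D4:**
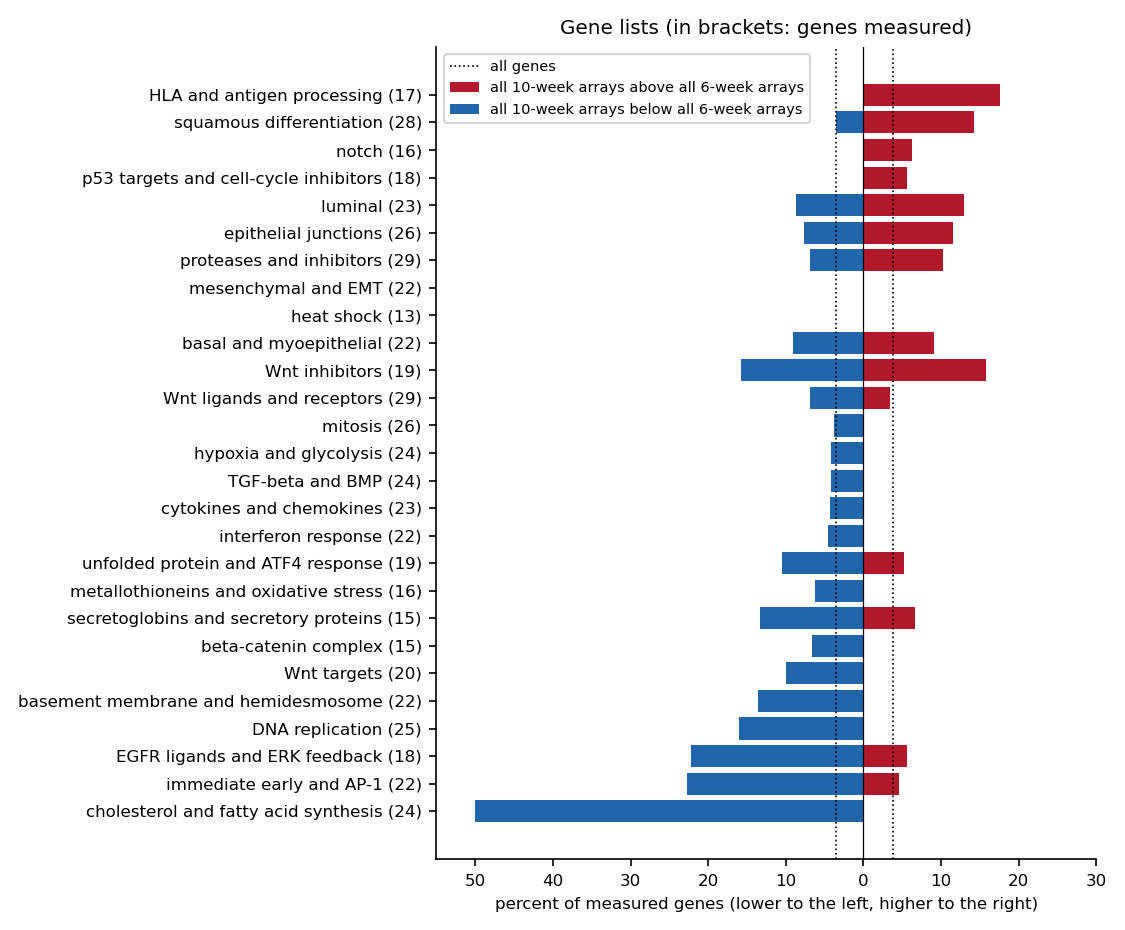
Percent of the measured genes of 27 lists (y axis; number measured in brackets) whose 10-week arrays all lay above (red, right) or all below (blue, left) the 6-week arrays (x axis, percent); dotted lines mark all genes, 3.81% and 3.58%. Cholesterol and fatty acid synthesis reaches 50% on the lower side and 0% on the higher side.

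The 2-week arrays place the late differences in the whole course, with the caution that every comparison with 6 weeks uses the same 6-week arrays. At 2, 6 and 10 weeks KLK7 averaged 6.59, 7.32 and 9.69, NIBAN1 averaged 4.56, 5.67 and 8.03, and HORMAD1 averaged 3.95, 6.57 and 8.19. These means were ordered with time. PROS1 averaged 5.20, 5.39 and 6.81 and CYP1A1 averaged 6.59, 6.27 and 8.09, so that nearly all of the difference lay after 6 weeks. H19 averaged 9.36, 7.76 and 5.96 at 2, 6 and 10 weeks, and COL4A2 averaged 9.63, 8.10 and 7.11. SCD averaged 9.20, 11.59 and 10.77, and the median level of the lipid synthesis list was 9.09, 8.60 and 8.68 in the 2-week arrays, below both later times. CLCA2 averaged 8.70, 9.90 and 8.06 and KRT86 averaged 7.74, 8.92 and 7.51, highest at 6 weeks.

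SUM225 gave a reference for the same interval in another line, with no shared arrays. Among the 15 genes with the largest positive differences in DCIS.COM, 11 had a positive and 4 a negative mean difference in SUM225, where 42.2% of all genes were positive, and 3 were higher without overlap (KLK7, HORMAD1 and NOV), beside 4.54% of all genes higher and 7.85% lower. Among the 15 with the largest negative differences, 8 were positive and 7 negative in SUM225. KLK7 had 6.88, 6.66 and 6.40 in SUM225 at 10 weeks, against 5.62, 5.70 and 5.40 at 6 weeks, a difference of 1.08 ± 0.14 that missed the adjusted test in that line (limma adjusted p = 0.0687). The lipid synthesis list had a median of -0.01 in SUM225, with 1 of 24 genes higher and 1 lower without overlap. Of the 28 squamous genes, 8 were higher and 1 lower without overlap in SUM225, with a median of 0.08, and the DNA replication and mitosis lists had medians of -0.22 and -0.27 there.

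A test of the difference between the lines, as an interaction over the 12 arrays of both lines at 10 and 6 weeks, called 10 of 54613 probe sets (0.0183%). NIBAN1 differed by 2.43 ± 0.30 between the lines (limma adjusted p = 0.0136), since SUM225 already had 9.40, 9.88 and 9.99 at 10 weeks, against 9.69, 9.79 and 9.99 at 6 weeks. The second NIBAN1 probe set differed by 2.28 ± 0.35 and was not called (limma adjusted p = 0.0694). PROS1 differed by 1.51 ± 0.18 (limma adjusted p = 0.00878), with 3.87, 3.68 and 4.09 in SUM225 at 10 weeks, against 4.02, 4.08 and 3.82 at 6 weeks. H19 had differences of opposite sign in the lines, with 12.15, 12.49 and 12.68 in SUM225 at 10 weeks, against 11.15, 10.96 and 11.34 at 6 weeks, and the difference between the lines was -3.09 ± 0.32 (limma adjusted p = 0.00293). The second H19 probe set differed by -2.50 ± 0.52 and was not called (limma adjusted p = 0.395). KLK7 was not called (1.29 ± 0.29, limma adjusted p = 0.481), nor was SCD (-0.83 ± 0.22, limma adjusted p = 0.779). The other named probe sets called were those of TKTL1, a transketolase-like protein, and ART3, an ADP-ribosyltransferase family member, whose changes lay in SUM225, where limma called 0.011% of probe sets higher and 0.00183% lower. TKTL1 averaged 8.71 at 10 weeks and 6.06 at 6 weeks in SUM225 (limma adjusted p = 0.00071), and 3.89 and 4.01 in DCIS.COM. ART3 averaged 4.20 at 10 weeks and 5.58 at 6 weeks in SUM225 (limma adjusted p = 0.00289), and 3.62 and 3.61 in DCIS.COM. The remaining called probe sets had no single symbol. Their differences were 1.97 to 2.32 in SUM225 and -0.16 to 0.01 in DCIS.COM.

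**Figure D5:**
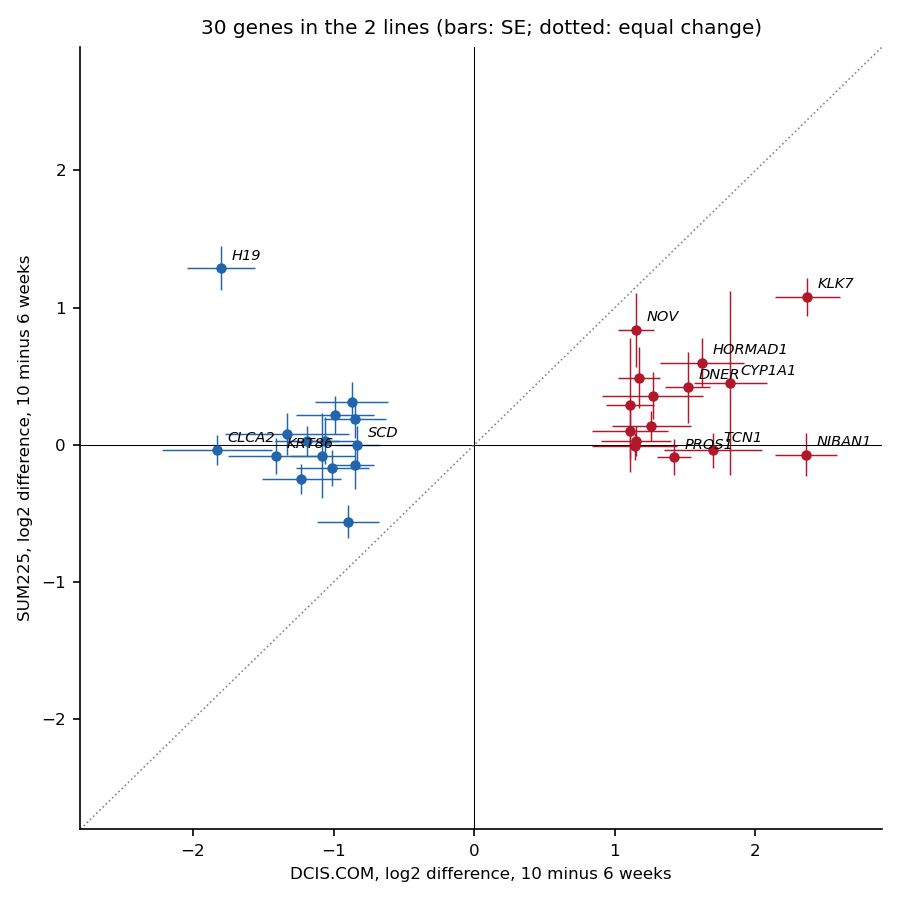
Difference between 10 and 6 weeks in DCIS.COM (x axis, log2) and in SUM225 (y axis, log2) for the 30 genes with the largest separated differences in DCIS.COM; bars are SE and the dotted line marks equal change. H19 lies at -1.80 in DCIS.COM and 1.29 in SUM225, and NIBAN1 and PROS1 lie near 0 in SUM225 at -0.07 and -0.09.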

How the data were processed

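RNA of EpCAM-positive cells was hybridized to Affymetrix human U133 Plus 2.0 arrays. The authors' deposited table holds RMA summaries as log2 values. Partek is named as well; versions and genome build are not given in the sources used here. RMA quantile-normalizes arrays together, so a shift of most genes would not be seen. Symbols came from the authors' tables of probe sets called between 6 and 2 weeks, whose fold changes and q-values were not used; their Wnt tables were not used.

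Differences were fitted with limma 3.58.1 in R 4.3.3 (lmFit, eBayes, Benjamini-Hochberg) and summarized in Python 3.11.15. SAM was rewritten with all 20 permutations. On simulated data for this comparison over 54613 probe sets, 56 of 100 log2 changes of 1 and 88 of 100 of 2 were recovered, and 6 unchanged probe sets were called. The simulated noise was independent between probe sets. In the real arrays deviations were shared, with correlations from -0.447 to 0.525 between arrays of the 2 times, so the recovery is not the power of the real test. Genes named were the 15 largest differences each way without overlap and with a mean of at least 6 in the higher group, genes past the adjusted threshold, up to 4 members of each of 33 lists and the study's markers; other names are list examples chosen after their values were seen. A few genes that the counts include are not reported here by name. Members, lists and tests were chosen with earlier results of these data known. Alternatives were rescaling, a filter on low means, wider fits, other moderation, array weights, SAM, a replicate block, 1 probe set per gene, other probe sets and leaving out arrays; list counts without replicate 1 of 10 weeks were added after seeing the data. The number of arrays limits the precision, and p-values measure the spread between these pools of mice.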

Additional observations from a re-analysis of the deposited data

Results flagged for a closer look

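Of the changes between 10 and 6 weeks, 10 probe sets differed between DCIS.COM and SUM225 in a test of that difference. Among genes named for their DCIS.COM differences these were NIBAN1, with a difference of 2.43 on the log2 scale, PROS1 with 1.51 and H19 with -3.09. The second probe sets of NIBAN1 and H19 differed by 2.28 and -2.50 and were not called. In the other called probe sets, among them those of TKTL1 and ART3, the change lay in SUM225. In NIBAN1 and PROS1 the 10-week and 6-week arrays of SUM225 overlapped, and in H19 they were separated in the direction opposite to DCIS.COM.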

How the results depend on the processing

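The count of 3 probe sets called higher at 10 weeks became 0 with arrays centered on their medians, 0 with quantile normalization applied again, 0 with SAM, 1 with all 9 DCIS.COM arrays, 1 with all 18 arrays, 5 with a variance trend, 6 with array weights and 6 with 1 probe set per gene, where 1 was called lower. Leaving out single arrays gave 0 to 5 higher and 0 to 7 lower, with the highest counts without replicate 2 of 10 weeks. Over 15 settings KLK7 passed in 7, NIBAN1 in 6 and PROS1 in 5, with adjusted p of 0.0051 to 0.26, 0.0051 to 1 and 0.0051 to 0.84. Probe sets without overlap numbered 1311 higher and 1072 lower among those with a mean of at least 5, and 3774 to 6796 higher and 3261 to 8654 lower with 1 array left out, where fewer arrays separate more easily by construction. Probe sets at least 2-fold apart then numbered 48 to 104 higher and 42 to 91 lower, with the highest counts without replicate 1 and replicate 2 of 10 weeks. The line difference gave 7 to 23 probe sets, with 23 without DCIS.COM replicate 2 of 10 weeks and 19 without SUM225 replicate 1 of 10 weeks. Replicate numbers did not pair the samples (same-number correlations 0.17, -0.447 and 0.0132), and a replicate block gave 2 higher, 0 lower and 11 for the line difference.

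Of 93 genes 15 changed sign on another probe set, 2 when an array was left out and 0 by scaling. Other probe sets read 0.06 for NTRK2, 0.20 for VAV3, 0.00 for FASN, 0.04 for FDPS, 0.03 for BCL9L, 0.16, 0.10 and 0.11 for CD44, 0.07 for SPDEF, 0.08 for JUND, -0.10 for TAP2, 0.02 for TYMS, 0.04 for SFRP1, 0.02 for DST, -0.14 for PKP2, 0.22 for ERBB2 and -0.12 for CDSN, and the cause was not tested. With 1 array left out BCL9L lay between -0.14 and 0.13 and VIM between -0.36 and 0.06. Of 33 list medians 17 changed sign with 1 array left out and 3 by scaling, while the lipid synthesis median stayed between -0.42 and -0.27.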
